A study of Mus musculus with 12 samples.

Results

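Monocyte and type 2 CC chemokines are 10 genes, Ccl3, Ccl4, Ccl7, Ccl8, Ccl9, Ccl11, Ccl12, Ccl17, Ccl22 and Ccl24, of the 909 named genes measured in mouse melanoma tumours on a focused Affymetrix array. They were chosen by name, and each was found through the RefSeq accession in its probe-set name. All 10 had 1 probe set among the 1246 of the array. The probe sets of Ccl7, Ccl9 and Ccl17 carry a suffix that marks probes shared with other transcripts or similar sequences, so their signal may hold related transcripts.

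RNA was taken from tumours of 2 melanoma lines grown in 2 kinds of syngeneic host. The 4 groups, of 3 arrays each, were Tm1N3 in hosts lacking galectin-3 (Gal3 -/-), Tm1N3 in wild-type hosts, Tm1G3 in Gal3 -/- hosts and Tm1G3 in wild-type hosts. The labels call Tm1N3 the galectin-3 expressing line and Tm1G3 the silenced one, and the study's design asks what galectin-3 of the tumour cells and of the host tissue each do to tumour growth. The design text speaks of overexpression from a coding plasmid in a line that had silenced the gene. Mouse strain, age, time of growth, promoter of the plasmid and clonality of the lines are not given in the sources used here. A knockout host still carries whatever galectin-3 its tumour cells make.

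Chemokines are small secreted proteins that bind receptors on leukocytes and draw these cells along a gradient. Those of the CC family act on CCR receptors: Ccl7 and Ccl12 are monocyte chemoattractant proteins that act through CCR2, Ccl8 is their close relative and in mice a ligand of CCR8, and Ccl3, Ccl4 and Ccl9 are macrophage inflammatory proteins, of which Ccl3 and Ccl9 act through CCR1. The eotaxins Ccl11 and Ccl24 draw eosinophils through CCR3. Ccl17 and Ccl22 bind CCR4, found on T helper type 2 and regulatory T cells, and macrophages and dendritic cells are their usual source.

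Values are log2 RMA levels, on which a difference of 1 is a 2-fold change in signal. Lgals3, which encodes galectin-3, lay from 9.35 to 10.55 in Tm1N3 tumours of knockout hosts, 9.72 to 10.39 in Tm1N3 tumours of wild-type hosts, 8.98 to 9.80 in Tm1G3 tumours of knockout hosts and 9.33 to 9.99 in Tm1G3 tumours of wild-type hosts. These groups overlapped and no line or host difference of Lgals3 passed the test. Tm1N3 minus Tm1G3 was 0.55 ± 0.33 (SE) in knockout hosts and 0.36 ± 0.33 in wild-type hosts (limma adjusted p = 0.696 and 0.747). Both differences had the direction of the labels. With 3 arrays a group the Lgals3 level neither separates the labelled lines nor shows them to be alike. The sources used here do not place its probe set relative to the deleted, silenced or plasmid sequence. The deposited values carry no measure of background. Precision is limited by having 3 arrays a group. The labels do not state whether every replicate came from its own animal, so a p-value here speaks only for the spread among these arrays, which may be technical. One array, Tm1G3 in a wild-type host replicate 1, stood apart for Il1b, an inflammatory cytokine of myeloid cells. Il1b was at 11.08 there and between 5.92 and 7.49 on the other 11 arrays. Most differences that rest on this array are given with and without it, and correlations for some pairs.

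Of the 10 genes, 7 varied widely from array to array and 3 spanned no more than the median probe set. Ccl3 spanned 3.65 on the log2 scale over the 12 arrays, or 12.5-fold, Ccl7 2.26, Ccl4 2.04, Ccl12 1.98, Ccl9 1.88, Ccl8 1.73 and Ccl11 1.07. Ccl22 spanned 0.43, Ccl24 0.32 and Ccl17 0.31, against a median of 0.44 over all probe sets. A span above 1 was seen in 12.4% of all probe sets. This spread lay mostly inside the groups: 53.1% of the variance of Ccl12, 74.4% of that of Ccl4, 78.3% of that of Ccl3 and 82.4% to 96.96% of that of the other 7 lay between arrays of the same line and host, where the median over all probe sets was 70.6%. Ccl12 differed from the rest in that 46.2% of its variance lay between the tumour lines, against 0.133% to 16.7% for the other 9 and a median of 7.65% over all probe sets.

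**Figure D1:**
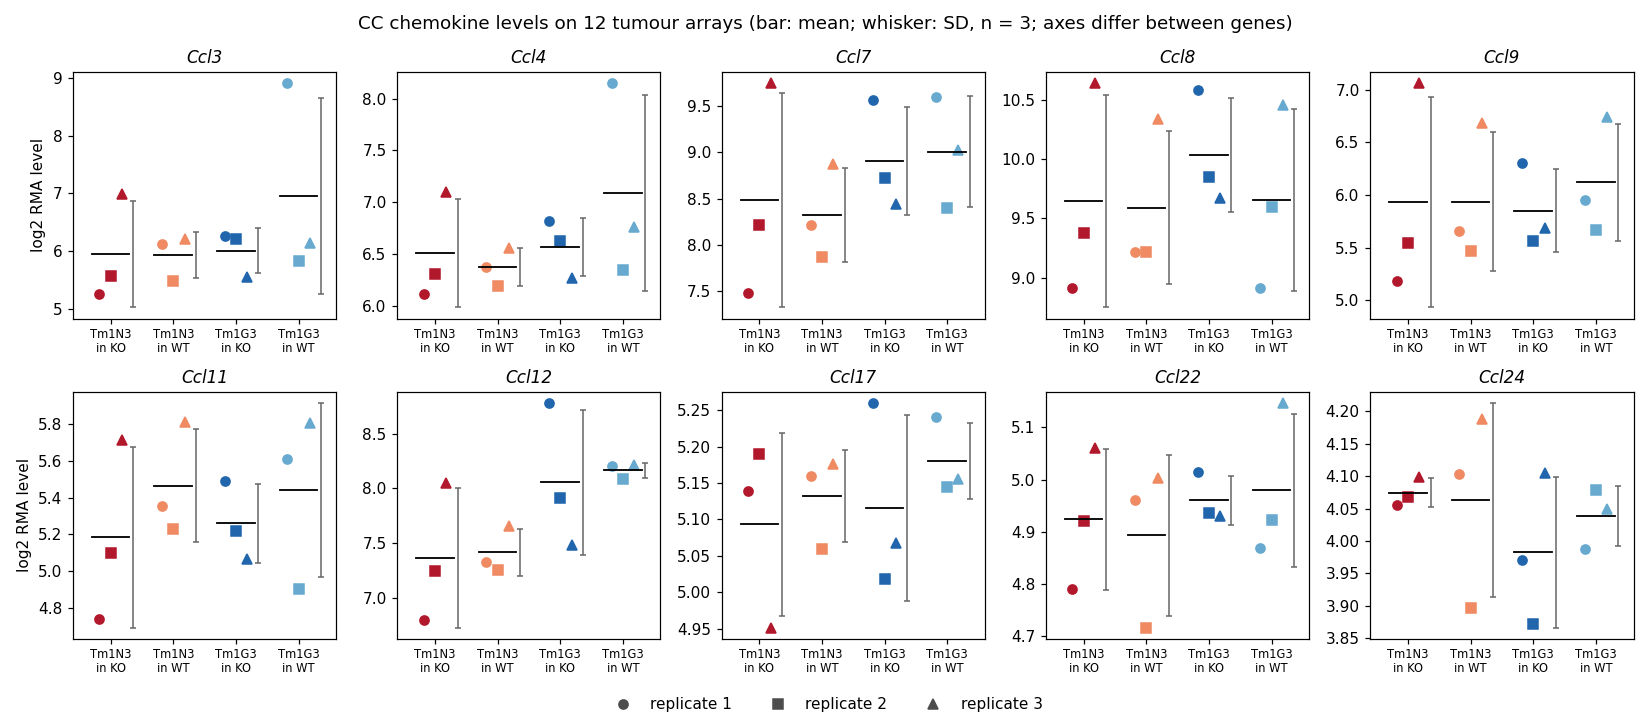
Log2 RMA level (y axis, a separate scale for each gene) of the 10 chemokine genes on 12 arrays by tumour line and host (x axis). Symbols mark replicates 1 to 3, bars the group mean and whiskers the SD (n = 3). Averaged over hosts the tumour lines lie furthest apart for Ccl12, with Tm1N3 means of 7.36 and 7.41 and Tm1G3 means of 8.05 and 8.16, and Ccl3 and Ccl4 each have 1 high array, Tm1G3 in a wild-type host replicate 1.

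The monocyte chemoattractant genes Ccl7, Ccl12 and Ccl8 and the eotaxin gene Ccl11 sit close together on mouse chromosome 11, in the order Ccl7, Ccl11, Ccl12 and Ccl8. The RefSeq table of promoter windows, 250 bases before to 50 after a start site in GRCm38.p6, held 6 of the 10 genes. Windows are given here for the neighbours Ccl12 (chr11:82101595-82101894, plus strand) and Ccl8 (chr11:82114935-82115234, plus strand), for Ccl9 (chr11:83578587-83578886, minus strand), which varied with them, and for Ccl17 (chr8:94810203-94810502, plus strand), which hardly varied, each written 5′ to 3′ on the gene's own strand. Capitals mark matches to 4 motifs: TATAAA on the gene's strand, and on both strands the kappa B consensus, the AP-1 motif TGANTCA and the STAT6 consensus.
Ccl12: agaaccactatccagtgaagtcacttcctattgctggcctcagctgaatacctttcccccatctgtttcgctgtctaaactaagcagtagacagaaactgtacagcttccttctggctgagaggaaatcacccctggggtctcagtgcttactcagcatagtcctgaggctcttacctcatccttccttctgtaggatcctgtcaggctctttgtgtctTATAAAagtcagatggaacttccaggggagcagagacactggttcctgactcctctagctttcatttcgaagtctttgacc
Ccl8: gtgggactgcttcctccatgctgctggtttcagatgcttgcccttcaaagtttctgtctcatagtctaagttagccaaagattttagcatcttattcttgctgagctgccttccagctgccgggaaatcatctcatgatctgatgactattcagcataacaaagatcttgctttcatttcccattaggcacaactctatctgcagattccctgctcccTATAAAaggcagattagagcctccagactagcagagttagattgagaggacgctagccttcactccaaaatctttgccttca
Ccl9: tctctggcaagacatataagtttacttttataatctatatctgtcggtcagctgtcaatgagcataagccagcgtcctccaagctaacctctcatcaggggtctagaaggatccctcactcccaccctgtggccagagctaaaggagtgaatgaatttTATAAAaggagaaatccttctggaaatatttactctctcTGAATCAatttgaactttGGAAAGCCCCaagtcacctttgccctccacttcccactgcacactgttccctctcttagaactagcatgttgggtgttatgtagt
Ccl17: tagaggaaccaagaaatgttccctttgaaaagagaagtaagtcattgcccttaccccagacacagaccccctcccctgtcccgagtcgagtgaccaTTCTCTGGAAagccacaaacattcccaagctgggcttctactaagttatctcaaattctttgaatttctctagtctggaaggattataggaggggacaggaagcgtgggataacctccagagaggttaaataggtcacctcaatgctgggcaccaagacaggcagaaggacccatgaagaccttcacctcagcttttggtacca

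Counted from the start site, the letters TATAAA began at -31 in Ccl12, -32 in Ccl8 and -92 in Ccl9, so 3 of the 6 windows held them against 8.28% of 32544 promoter windows of mouse genes. Ccl9 also held an AP-1 match, TGAATCA, and a kappa B match on the other strand, GGAAAGCCCC, motifs found in 7.79% and 8.49% of all windows. Ccl17 held the STAT6 match TTCTCTGGAA, a motif found in 6.98% of all windows. No matches overlapped each other in these windows. Ccl3 and Ccl22 held none of the 4 motifs within the window. A match is a description of the letters only.

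Ccl12, which encodes monocyte chemoattractant protein 5, a mouse ligand of CCR2, was lower in Tm1N3 than in Tm1G3 tumours by the largest margin relative to its error, without passing the test. Its log2 level was 6.80, 7.24 and 8.05 in Tm1N3 tumours of knockout hosts and 7.33, 7.25 and 7.66 in Tm1N3 tumours of wild-type hosts. In Tm1G3 tumours it was 8.78, 7.91 and 7.48 in knockout hosts and 8.20, 8.08 and 8.21 in wild-type hosts. In wild-type hosts the lines did not overlap, and in knockout hosts they did, through Tm1N3 replicate 3. The group means, from low to high, were 7.36 for Tm1N3 in knockout hosts, 7.41 for Tm1N3 in wild-type hosts, 8.05 for Tm1G3 in knockout hosts and 8.16 for Tm1G3 in wild-type hosts, and within a line the hosts overlapped. The line difference, Tm1N3 minus Tm1G3, was -0.69 ± 0.34 (SE) in knockout hosts and -0.75 ± 0.34 in wild-type hosts (limma, Benjamini-Hochberg adjusted p = 0.626 and 0.387). Averaged over hosts it was -0.72 ± 0.24 (SE), a 1.65-fold lower level, with a 95% interval from -1.26 to -0.19. The unadjusted p of that average was 0.0132 and the limma adjusted p 0.146. Over its alternatives the adjusted p ran from 0.0294, with array weights, to 0.270, and the one other value under the threshold was 0.0465, without Tm1N3 in a knockout host replicate 3. With arrays left out in turn the average ran from -0.89 without that array to -0.54 without Tm1G3 in a knockout host replicate 1, and the value in knockout hosts from -1.04 to -0.33 without the same 2 arrays.

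Ccl7, which encodes monocyte chemoattractant protein 3, varied more inside the groups than between them. It stood at 7.49, 8.21 and 9.74 in Tm1N3 tumours of knockout hosts and at 8.22, 7.87 and 8.87 in Tm1N3 tumours of wild-type hosts. In Tm1G3 tumours it stood at 9.56, 8.72 and 8.44 in knockout hosts and at 9.59, 8.40 and 9.02 in wild-type hosts. The lowest and the highest of the 12 arrays were both Tm1N3 tumours of knockout hosts. The line difference was -0.43 ± 0.54 (SE) in knockout hosts and -0.68 ± 0.54 in wild-type hosts, and -0.56 ± 0.38 averaged over hosts (limma adjusted p = 0.935, 0.707 and 0.577).

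Ccl8, which encodes monocyte chemoattractant protein 2, was at 8.91, 9.38 and 10.64 in Tm1N3 tumours of knockout hosts and at 9.22, 9.22 and 10.34 in Tm1N3 tumours of wild-type hosts. It was at 10.58, 9.85 and 9.67 in Tm1G3 tumours of knockout hosts and at 8.92, 9.60 and 10.46 in Tm1G3 tumours of wild-type hosts. All 4 groups overlapped. The line difference was -0.39 ± 0.51 (SE) in knockout hosts and -0.07 ± 0.51 in wild-type hosts (limma adjusted p = 0.935 and 0.982). The knockout value was -0.025 without Tm1N3 replicate 1 and -0.89 without Tm1N3 replicate 3 of those hosts.

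Ccl3 and Ccl4, which encode macrophage inflammatory proteins 1 alpha and 1 beta, had 1 array far above the rest. Ccl3 was at 5.26, 5.58 and 6.99 in Tm1N3 tumours of knockout hosts and at 6.13, 5.48 and 6.21 in Tm1N3 tumours of wild-type hosts. It was at 6.26, 6.21 and 5.56 in Tm1G3 tumours of knockout hosts and at 8.91, 5.83 and 6.13 in Tm1G3 tumours of wild-type hosts. The groups overlapped, and Tm1N3 in a knockout host replicate 3 was the next highest array. The line difference was -0.07 ± 0.72 (SE) in knockout hosts and -1.02 ± 0.72 in wild-type hosts (limma adjusted p = 0.992 and 0.663), and the wild-type value was -0.04 without Tm1G3 in a wild-type host replicate 1.

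Ccl4 had the same order of replicates as Ccl3 within each of the 4 groups. It was at 6.11, 6.31 and 7.10 in Tm1N3 tumours of knockout hosts and at 6.37, 6.19 and 6.56 in Tm1N3 tumours of wild-type hosts. In Tm1G3 tumours it was at 6.81, 6.62 and 6.27 in knockout hosts and at 8.15, 6.34 and 6.76 in wild-type hosts. Its line difference was -0.06 ± 0.41 (SE) in knockout hosts and -0.71 ± 0.41 in wild-type hosts (limma adjusted p = 0.988 and 0.537), the last -0.18 without the same array.

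Ccl9, which encodes macrophage inflammatory protein 1 gamma, a CCR1 ligand known from rodents, was at 5.18, 5.55 and 7.06 in Tm1N3 tumours of knockout hosts and at 5.66, 5.47 and 6.69 in Tm1N3 tumours of wild-type hosts. It was at 6.30, 5.56 and 5.69 in Tm1G3 tumours of knockout hosts and at 5.95, 5.67 and 6.74 in Tm1G3 tumours of wild-type hosts. The array that carried the Ccl3 and Ccl4 peak, at 5.95, was not high for Ccl9. The line difference was 0.08 ± 0.49 (SE) in knockout hosts and -0.18 ± 0.49 in wild-type hosts (limma adjusted p = 0.987 and 0.940).

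Ccl11, eotaxin, was at 4.74, 5.10 and 5.71 in Tm1N3 tumours of knockout hosts and at 5.36, 5.23 and 5.81 in Tm1N3 tumours of wild-type hosts. In Tm1G3 tumours it was at 5.49, 5.22 and 5.07 in knockout hosts and at 5.61, 4.90 and 5.81 in wild-type hosts. The 4 groups overlapped, and the line difference was -0.08 ± 0.28 (SE) in knockout hosts and 0.03 ± 0.28 in wild-type hosts (limma adjusted p = 0.983 and 0.990). Ccl24, eotaxin 2, lay from 4.06 to 4.10 in Tm1N3 tumours of knockout hosts, 3.90 to 4.19 in Tm1N3 tumours of wild-type hosts, 3.87 to 4.10 in Tm1G3 tumours of knockout hosts and 3.99 to 4.08 in Tm1G3 tumours of wild-type hosts. Its mean of 4.04 fell under 4.22, the bound of the dimmest 25% of probe sets, and the deposited values do not show whether it was above background.

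The CCR4 ligands Ccl17 and Ccl22 gave, with Ccl24, the narrowest intervals of the 10 genes. Ccl17 lay from 4.95 to 5.19 in Tm1N3 tumours of knockout hosts, 5.06 to 5.18 in Tm1N3 tumours of wild-type hosts, 5.02 to 5.26 in Tm1G3 tumours of knockout hosts and 5.14 to 5.24 in Tm1G3 tumours of wild-type hosts. Ccl22 lay from 4.79 to 5.06 in Tm1N3 tumours of knockout hosts, 4.72 to 5.00 in Tm1N3 tumours of wild-type hosts, 4.93 to 5.01 in Tm1G3 tumours of knockout hosts and 4.87 to 5.15 in Tm1G3 tumours of wild-type hosts. All 4 groups overlapped for both genes. The means of Ccl17 and Ccl22, 5.13 and 4.94, lay under the median of 5.56 over all probe sets. The deposited values do not show whether they were above background, so the narrow intervals speak for the signal only. The 95% interval of the line difference of Ccl17 ran from -0.21 to 0.16 in knockout hosts and from -0.23 to 0.14 in wild-type hosts. For Ccl22 it ran from -0.26 to 0.19 in knockout hosts and from -0.31 to 0.14 in wild-type hosts, and for Ccl24 from -0.09 to 0.28 and from -0.16 to 0.21.

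**Figure D2:**
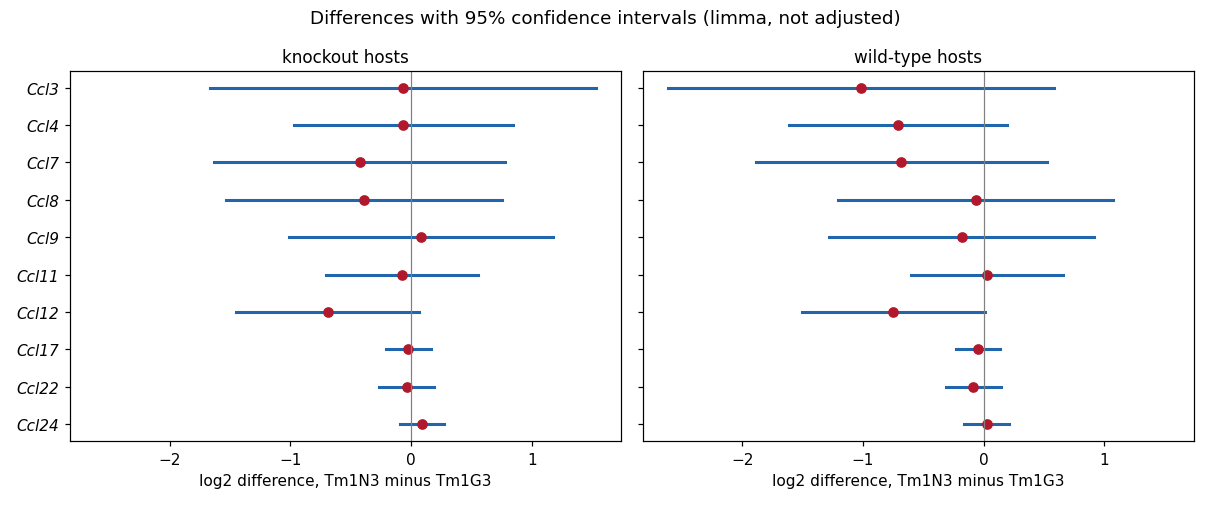
Line difference, Tm1N3 minus Tm1G3, on the log2 scale (x axis) for the 10 genes (y axis) in knockout hosts (left) and wild-type hosts (right). Points are limma estimates and lines their unadjusted 95% intervals. Every interval includes 0, those of Ccl17, Ccl22 and Ccl24 are the narrowest, and Ccl12 lies near -0.7 in both panels.

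In the line comparison, which asks what the tumour line changes in a given host, 0 of 10 genes passed the 0.05 threshold on the limma adjusted p (Benjamini-Hochberg) in knockout hosts, where 0.722% of all probe sets did. In wild-type hosts it was also 0 of 10, against 0.883%, and averaged over hosts 0 of 10, against 4.25%. At an unadjusted p under 0.05 the counts were 0 of 10 in knockout hosts, 0 of 10 in wild-type hosts and 1 of 10, Ccl12, averaged over hosts, where 9.47%, 13.1% and 16.4% of all probe sets reached it. The groups did not overlap, with Tm1N3 the lower, for 1 of 10 genes in wild-type hosts (Ccl12), against 8.51% of all probe sets, and for 0 of 10 in knockout hosts, against 7.95%. In knockout hosts 8 of 10 differences were negative, with a median of -0.07, and in wild-type hosts 8 of 10, with a median of -0.13, where 49.7% and 49.5% of all probe sets were negative and their medians were 0.00087 and 0.0011. Because 7 of the genes varied together from array to array, and Ccl22 with some of them, these counts do not stand for 10 separate measurements.

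The host comparison asks what the loss of galectin-3 in the host changes within a line. In Tm1N3 tumours the knockout minus wild-type differences ran from -0.28 ± 0.28 (SE) for Ccl11 to 0.16 ± 0.54 for Ccl7, with a median of 0.0069. In Tm1G3 tumours they ran from -0.95 ± 0.72 for Ccl3 to 0.38 ± 0.51 for Ccl8, with Ccl4 at -0.52 ± 0.41 and a median of -0.10. Without Tm1G3 in a wild-type host replicate 1 the Ccl3 value in Tm1G3 tumours was 0.03, that of Ccl4 0.01 and that of Ccl8 0.0093. Averaged over lines Ccl3 differed by -0.47 ± 0.51 and Ccl8 by 0.22 ± 0.36, and the Ccl3 value was 0.015 without the same array. None of the 10 genes passed in Tm1N3 tumours, in Tm1G3 tumours or averaged over lines in limma, and none had an unadjusted p under 0.05 in any of the 3. Over all probe sets 0% passed in each, and 4.33%, 6.18% and 6.26% had an unadjusted p under 0.05.

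**Figure D3:**
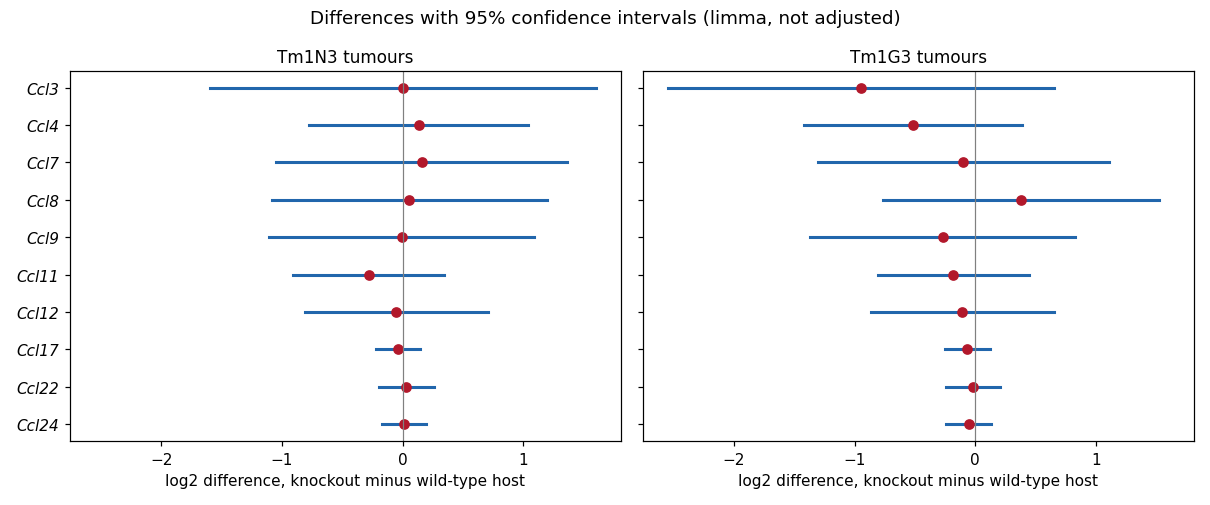
Host difference, knockout minus wild-type, on the log2 scale (x axis) for the 10 genes (y axis) in Tm1N3 tumours (left) and Tm1G3 tumours (right). Points are limma estimates and lines their unadjusted 95% intervals, all of which include 0. Ccl3 at -0.95 and Ccl4 at -0.52 in Tm1G3 tumours rest on 1 wild-type host array.

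Whether the line difference depended on the host was tested by the interaction term, the difference in knockout hosts minus that in wild-type hosts. It was 0.95 ± 1.02 (SE) for Ccl3, 0.65 ± 0.58 for Ccl4 and -0.32 ± 0.73 for Ccl8, and without Tm1G3 in a wild-type host replicate 1 these were -0.03, 0.12 and 0.05. No gene of the 10 passed in limma or had an unadjusted p under 0.05, and over all probe sets 0% passed and 2.81% had an unadjusted p under 0.05.

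The widely varying genes moved together inside the groups. In Tm1N3 tumours of knockout hosts replicate 3 was the highest array for all 7 of them and replicate 1 the lowest for all 7. In Tm1N3 tumours of wild-type hosts replicate 3 was the highest for all 7. In Tm1G3 tumours of knockout hosts it was replicate 1 for all 7. Tm1G3 tumours of wild-type hosts divided them: replicate 1 was the highest for Ccl3, Ccl4 and Ccl7, replicate 3 for Ccl8, Ccl9, Ccl11 and Ccl12, and for Ccl8 replicate 1 was the lowest.

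Over the 12 arrays Ccl3 and Ccl4, neighbours on chromosome 11, had the highest Pearson correlation of the 45 pairs, r = 0.983 (permutation p = 1.0e-05, the smallest that 100000 permutations can give, adjusted over the 45 pairs 4.5e-04) and Spearman rho = 0.972 (permutation p = 1.0e-05, adjusted 4.5e-04). Without the 2 arrays farthest from the Ccl3 median r was 0.924. Ccl9 and Ccl11 followed at r = 0.875 (permutation p = 1.5e-04, adjusted 0.0024) and rho = 0.776 (permutation p = 0.00425, adjusted 0.0213), with r = 0.855 without the 2 farthest arrays. Ccl7 and Ccl12 had r = 0.862 (permutation p = 4.2e-04, adjusted 0.00473) and rho = 0.832 (permutation p = 0.0013, adjusted 0.00975), with r = 0.856 without the 2 farthest arrays. Measured as deviations from group means, which removes line and host, these 3 pairs had r of 0.987, 0.911 and 0.882. The arrays of one group share a line and a host, so they are not 12 draws from one population.

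The 3 lowest correlations of the 45 all held Ccl17 or Ccl24. Ccl12 and Ccl24 had r = -0.184 and rho = -0.224 (permutation p = 0.565 and 0.485, adjusted 0.754 and 0.623). Ccl8 and Ccl17 had r = -0.182 and rho = -0.133 (permutation p = 0.569 and 0.683, adjusted 0.754 and 0.788). Ccl4 and Ccl24 had r = -0.137 and rho = -0.154 (permutation p = 0.665 and 0.636, adjusted 0.831 and 0.773). Without the 2 farthest arrays r was -0.047, -0.165 and -0.126 for these pairs. The CCR4 ligands Ccl17 and Ccl22 had r = 0.026 with each other (permutation p = 0.935, adjusted 0.979) and rho = 0.049 (permutation p = 0.886, adjusted 0.927), and r = 0.404 without the 2 farthest arrays. Ccl22, though of narrow span, had r = 0.813 and rho = 0.839 with Ccl8 (permutation p = 6.1e-04 and 0.00117, adjusted 0.00549 and 0.00975). With Ccl9 it had r = 0.803 and rho = 0.818 (permutation p = 0.00125 and 0.00196, adjusted 0.00703 and 0.0110). Without the 2 farthest arrays these r were 0.794 and 0.679. With the other widely varying genes its r ran from 0.178 for Ccl3 to 0.653 for Ccl11.

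One array set the relation between the Ccl3 and Ccl8 levels. Over 12 arrays they had r = -0.00021 and rho = 0.503 (permutation p = 0.9997 and 0.0995, adjusted 0.9997 and 0.160), and r was 0.748 without the 2 farthest arrays. On the 11 arrays without Tm1G3 in a wild-type host replicate 1 r was 0.806. For Ccl7 and Ccl8 it was 0.641 over 12 arrays (permutation p = 0.0278, adjusted 0.0834), with rho = 0.664 (permutation p = 0.0222, adjusted 0.0525) and r = 0.418 without the 2 arrays farthest from the Ccl7 median, but 0.962 on the 11 arrays. On the array left out Ccl3 stood at 8.91, its highest level, whereas Ccl8 stood at 8.92, beside its lowest level of 8.91. Il1b, which peaked on the same array, had r of 0.953 with Ccl3, 0.941 with Ccl4 and -0.147 with Ccl8 over 12 arrays, as a description. How far these r rest on that array was not tested.

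**Figure D4:**
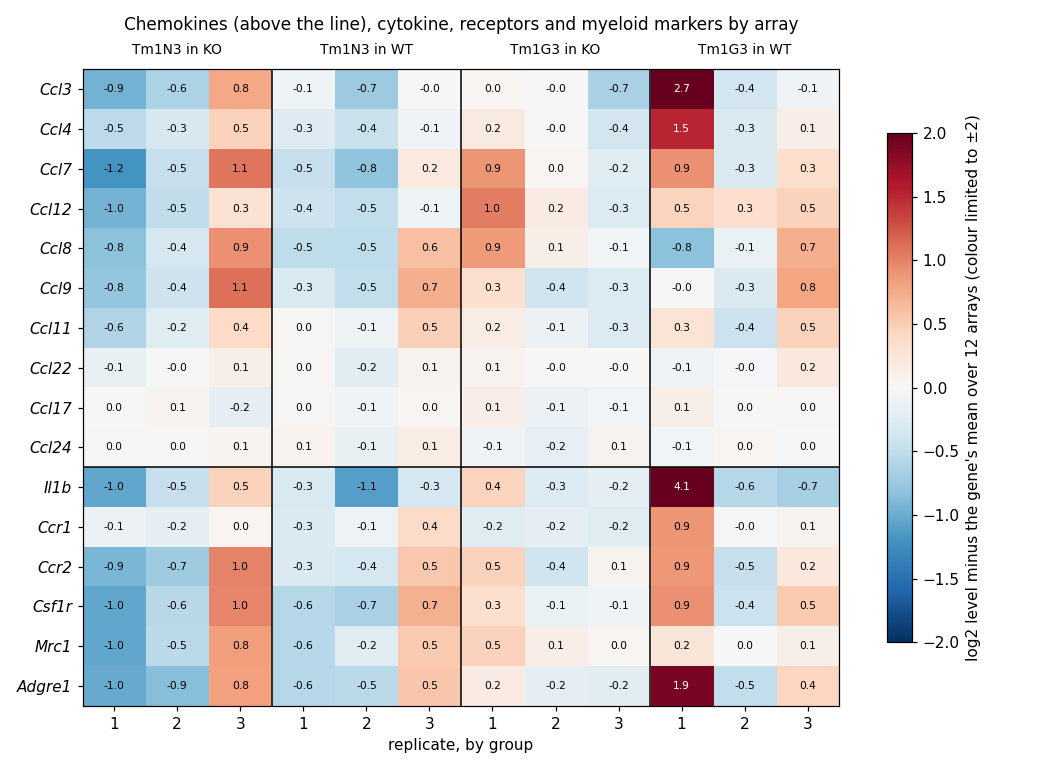
Log2 level minus the gene's own mean over the 12 arrays (colour and printed values) for the 10 chemokine genes above the line, and below it the cytokine gene Il1b, the receptor genes Ccr1 and Ccr2 and the macrophage marker genes Csf1r, Mrc1 and Adgre1 (y axis), by array (x axis). Replicate 3 of either Tm1N3 group and replicate 1 of Tm1G3 in knockout hosts are the high arrays of their groups for 7 of the chemokines, and the rows of Ccl22, Ccl17 and Ccl24 stay near 0.

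Markers of macrophages and monocytes moved with these genes. Of 13 such markers listed 8 were measured. Replicate 3 was the highest array for 8 of 8 in Tm1N3 tumours of knockout hosts and for 7 of 8 in Tm1N3 tumours of wild-type hosts. Replicate 1 was the highest for 8 of 8 in Tm1G3 tumours of knockout hosts and for 6 of 8 in Tm1G3 tumours of wild-type hosts. The mean log2 level of the list ran from 5.89 to 7.62 in Tm1N3 tumours of knockout hosts, 6.34 to 7.33 in Tm1N3 tumours of wild-type hosts, 6.68 to 7.23 in Tm1G3 tumours of knockout hosts and 6.50 to 7.39 in Tm1G3 tumours of wild-type hosts. Fibroblast markers, 3 of 5 measured, moved likewise, with a list mean from 6.56 to 8.40 in Tm1N3 tumours of knockout hosts, 7.08 to 8.06 in Tm1N3 tumours of wild-type hosts, 7.15 to 7.84 in Tm1G3 tumours of knockout hosts and 7.14 to 7.83 in Tm1G3 tumours of wild-type hosts. Neutrophil markers, 4 of 8 measured, averaged 5.86 on Tm1G3 in a wild-type host replicate 1 and between 4.77 and 5.17 on the other arrays. Of 7 melanocyte and melanoma markers Kit and Mcam were measured, with a mean between 7.53 and 8.74, and pigment genes were not among the measured ones. Both passed in the line comparison averaged over hosts, where Ccl12 did not: the receptor tyrosine kinase gene Kit was lower in Tm1N3 than in Tm1G3 tumours by limma (-0.99 ± 0.15, SE; adjusted p = 0.0038) and the adhesion molecule gene Mcam higher (0.66 ± 0.15; adjusted p = 0.0336). With arrays left out in turn Kit passed in 12 of 12 fits, whereas Mcam ran from 0.58 to 0.76 and passed in 3 of 12, those without replicate 1 of either knockout-host group or of Tm1G3 in wild-type hosts, with an adjusted p of up to 0.0913. In knockout hosts alone Kit differed by -1.55 ± 0.21 (limma adjusted p = 0.0064). In wild-type hosts Kit differed by -0.44 ± 0.21 (limma adjusted p = 0.428) and passed in 0 of 12 such fits. Its host difference was -0.51 in Tm1N3 and 0.61 in Tm1G3 tumours, and neither passed. Of 7 endothelial markers 4 were measured, with a mean between 6.26 and 6.70, and 1, Icam2, was lower in Tm1N3 tumours averaged over hosts (-0.40 ± 0.08, SE; limma adjusted p = 0.0215). Icam2 passed in 9 of 12 such fits, with an adjusted p of up to 0.0558 in the others, those without Tm1N3 in a wild-type host replicate 2 or 3 or Tm1G3 in a wild-type host replicate 3. Dendritic cell markers, 3 of 5 measured, averaged between 4.40 and 4.76, and T and NK cell markers, 4 of 10 measured, between 3.90 and 4.14, and none of them passed in a line comparison. The part of these cells in the chemokine levels was not tested, and in bulk tumours more cells of a type and more RNA per cell cannot be told apart.

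By the highest Pearson r over the 12 arrays, the gene most like the mean of the 10 chemokines was Csf1r, the receptor of the macrophage growth factor CSF-1 (r = 0.960), followed by Cd48, a surface protein of leukocytes (0.946). Csf1r had r of 0.930 with Ccl7, 0.868 with Ccl11, 0.867 with Ccl9, 0.780 with Ccl4, 0.735 with Ccl3, 0.710 with Ccl12, 0.631 with Ccl22, 0.623 with Ccl8, 0.182 with Ccl24 and 0.030 with Ccl17. These r values describe 12 arrays that share lines and hosts, and they carry no test. Apart from each other, Ccl3 was most like Cxcl2, a neutrophil chemokine (r = 0.970), and Ccl4 like Il1r2, the decoy receptor of interleukin 1 (0.959). Both chemokines peaked on Tm1G3 in a wild-type host replicate 1, at 8.91 and 8.15. How far these matches rest on that array was not tested. Ccl7 was most like Cd48 (0.941) and the myeloid lectin Clec4n (0.940), Ccl8 like the growth factors Pdgfc (0.906) and Igf1 (0.899), and Ccl9 like Igfbp6 (0.957) and the alarmin Il33 (0.954). Ccl11 was most like the adhesion molecule Vcam1 (0.961) and Csf2rb2 (0.922), Ccl12 like Wnt9a (0.913) and Pgm2l1 (0.872). The genes of narrow span had lower best matches: Slc35d3 (0.833) and Tgfb2 (0.745) for Ccl17, Bmp1 (0.890) and Sdc3 (0.841) for Ccl22, and Klrk1 (0.808) and Muc13 (0.803) for Ccl24.

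**Figure D5:**
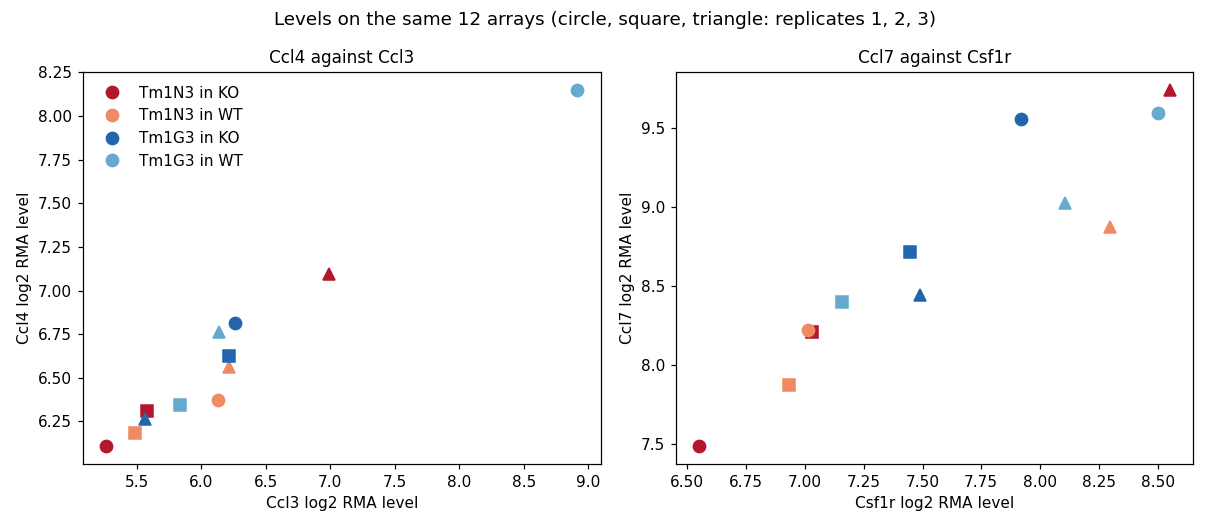
Log2 RMA level of Ccl4 against Ccl3 (left) and of Ccl7 against Csf1r (right) on the same 12 arrays, coloured by tumour line and host. The Ccl3 and Ccl4 levels have r = 0.983 with 1 array far from the rest at 8.91 and 8.15, and Ccl7 and Csf1r have r = 0.930 with the groups interleaved.

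Of the receptors of these ligands, Ccr1, Ccr2, Ccr3, Ccr4 and Ccr8 were examined, and 0 of 5 passed in either line comparison, in either host comparison or in the averages (limma, Benjamini-Hochberg). At an unadjusted p under 0.05 it was 1 of 5, Ccr1, in the host comparison of Tm1G3 tumours, where 6.18% of all probe sets reached it, and 0 of 5 in the other comparisons. Ccr1 differed there by -0.53 ± 0.22 (SE; limma adjusted p = 0.764), and by -0.25 without Tm1G3 in a wild-type host replicate 1. Ccr2, the monocyte receptor of Ccl7 and Ccl12, was at 5.53, 5.73 and 7.43 in Tm1N3 tumours of knockout hosts and at 6.15, 6.09 and 6.98 in Tm1N3 tumours of wild-type hosts. In Tm1G3 tumours it was at 6.90, 6.04 and 6.52 in knockout hosts and at 7.31, 5.97 and 6.65 in wild-type hosts. Its line difference was -0.26 ± 0.50 (SE) in knockout hosts and -0.24 ± 0.50 in wild-type hosts, the last 0.095 without the same array. Ccr1, a receptor of Ccl3 and Ccl9, differed between the lines by 0.13 ± 0.22 (SE) in knockout hosts and -0.31 ± 0.22 in wild-type hosts, the last -0.028 without that array. The eotaxin receptor gene Ccr3 averaged 3.45 over the 12 arrays, Ccr4, the receptor of Ccl17 and Ccl22, 3.46, and Ccr8 3.91, all under the 4.22 that bounds the dimmest 25% of probe sets, as did Ccr1 at 3.43. The mean of 4 measured eosinophil markers of 5 listed lay between 3.59 and 3.70 on every array.

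Among other CC chemokines on the list 7 of 13 were measured. Ccl5, a T cell chemokine, fell in Tm1N3 relative to Tm1G3 tumours averaged over hosts, at 8.18, 8.05 and 8.19 in Tm1N3 tumours of knockout hosts and 8.42, 7.78 and 8.16 in those of wild-type hosts, against 8.95, 9.08 and 8.67 in Tm1G3 tumours of knockout hosts and 8.42, 8.69 and 8.85 in those of wild-type hosts (-0.65 ± 0.12, SE; limma adjusted p = 0.0113) while the other 6 did not pass. Among those Ccl1 differed by 0.02 ± 0.06, Ccl20 by 0.05 ± 0.06 and Ccl21a by -0.29 ± 0.11 (SE) averaged over hosts. Of 3 atypical receptors Ackr4 was measured, at -0.19 ± 0.07 (SE; limma adjusted p = 0.170). Of the variance of Ccl5 71.5% lay between the lines. Of 9 measured type 2 cytokine and receptor genes of 10 listed 0 passed in any comparison in limma, and 1, Il10, had an unadjusted p under 0.05, in the host comparison of Tm1G3 tumours (-0.14 ± 0.06, SE), where 6.18% of all probe sets had one. Il4 differed between the lines by 0.04 ± 0.08 (SE) averaged over hosts, Il5 by 0.13 ± 0.06, Il13 by -0.03 ± 0.04 and Il10 by 0.06 ± 0.04. The group means of Il4 (3.92 to 4.02) and Il10 (3.94 to 4.08) lay under 4.22, the bound of the dimmest 25% of probe sets. Those of Il5 ran from 4.04 to 4.23 and those of Il13 from 5.04 to 5.12. Of 5 measured inducing cytokines of 6 listed 0 passed in limma and 0 had an unadjusted p under 0.05 in any comparison, with line differences averaged over hosts of -0.43 ± 0.30 (SE) for Il1a, -0.93 ± 0.73 for Il1b, 0.01 ± 0.06 for Ifng and -0.29 ± 0.15 for Csf1. Without Tm1G3 in a wild-type host replicate 1 those of Il1a and Il1b were -0.098 and -0.15. Ifng (group means from 3.00 to 3.03) and Ccl20 (3.15 to 3.27) also lay under 4.22.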

How the data were processed

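Per the labels' protocols, RNA of tumours, on 12 arrays, became biotinylated cRNA for Affymetrix hybridisation. The authors deposited log2 values, made with RMA per the submitters' processing notes, which give no version and no further step; RMA corrects background, quantile-normalizes and summarizes probes. Values ran from 2.14 to 13.9, the array medians lay within 0.0945, and no 2 arrays were identical. They were used as deposited.

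Of 1246 probe sets 963 matched 1 symbol by RefSeq accession in a table of assembly GRCm38.p6, for 909 symbols. The sources used here give no build for the array itself. Promoter windows are RefSeq's, in GRCm38.p6.

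The means of 4 groups were estimated in 1 limma 3.58.1 model (lmFit, eBayes; R 4.3.3) over the 12 arrays, with 8 residual and 2.39 prior degrees of freedom, with Benjamini-Hochberg adjustment over 1246 probe sets, threshold 0.05, two-sided. SE is the difference divided by limma's moderated t. The procedure was tested on simulated data. Correlations between genes were tested with 100000 permutations, two-sided, in Python 3.11.15.

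The genes and lists were chosen with earlier results of these data known. All 10 genes are named, up to 4 genes of the chemokine, receptor and cytokine lists in list order, and for each gene the 2 genes with the highest r. The receptor, marker and cytokine genes named beyond these were picked once their values had been seen. So were the groups of 7 and 3 genes, the pairs that hold Ccl22, and the pairs Ccl3 with Ccl8 and Ccl7 with Ccl8. One gene of these lists is not reported here.

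Replicate numbers are shared between groups. Deviations of same-numbered arrays had r of 0.184 to 0.752 across hosts in Tm1N3 and of 0.249 to 0.308 in Tm1G3, all over 0.1, and of -0.660 to 0.544 across lines. By that rule the numbers were treated as pairing the hosts within a line in alternative fits. Deviations within a group cancel out, so the r values of a comparison are not independent and do not establish a pairing. What a number marks is not stated in the labels.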

Additional observations from a re-analysis of the deposited data

How the results depend on the processing

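The count of genes called was recomputed over all 10 genes under each alternative, and single values for all 10 in the line comparison within a host and otherwise for the genes whose values are given: array weights, centring, a second quantile normalization, an intensity trend, dropping the dimmest 25% of probe sets (which removes Ccl24), fitting the 2 groups compared, replicate blocks and leaving out each array. Taking the mean of a gene's probe sets gives the same values, since each gene has 1. The count of the 10 genes called stayed at 0 in every comparison and alternative but the line comparison averaged over hosts, where it was 1 (Ccl12) with array weights and 0 to 1 when arrays were left out in turn, the 1 without KO_Tm1N3 replicate 3. With the replicate block, fixed or random, 0 of the 10 genes were called in every comparison, so blocking by replicate number changed no call. The fixed block within a line was added after seeing the data. With array weights the calls over all probe sets were 131, against 53, for the line averaged over hosts, 55, against 9, in knockout hosts and 48, against 11, in wild-type hosts, and with only the 2 groups compared they were 4 in knockout hosts and 3 in wild-type hosts. The random block gave 6 in knockout hosts. In wild-type hosts centring gave 6 and a second quantile normalization 15. With arrays left out in turn the calls ran from 2 to 21 in wild-type hosts and from 5 to 13 in knockout hosts. Averaged over hosts they ran from 32 to 63. Array weights also turned the line difference of Ccl17 in knockout hosts to 0.096 and the host difference of Ccl7 in Tm1N3 tumours to -0.049. The lowest weights were 0.445 for KO_Tm1N3 replicate 3, 0.482 for KO_Tm1G3 replicate 1 and 0.522 for WT_Tm1G3 replicate 1. Leaving out single arrays turned signs of values that passed no test. In knockout hosts the line difference ran from -0.59 to 0.27 for Ccl3, -0.36 to 0.13 for Ccl4, -1.06 to 0.071 for Ccl7, -0.49 to 0.45 for Ccl9, -0.34 to 0.15 for Ccl11, -0.070 to 0.050 for Ccl17 and -0.11 to 0.030 for Ccl22. In wild-type hosts it ran from -0.44 to 0.33 for Ccl8, -0.56 to 0.13 for Ccl9, -0.24 to 0.21 for Ccl11, -0.14 to 0.0025 for Ccl22 and -0.038 to 0.11 for Ccl24. The host difference ran from -0.47 to 0.66 for Ccl7 in Tm1N3 tumours, from -1.51 to 0.027 for Ccl3 and -0.89 to 0.014 for Ccl4 in Tm1G3 tumours, and averaged over lines from -0.75 to 0.015 for Ccl3 and -0.032 to 0.42 for Ccl8. The interaction ran from -0.025 to 1.51 for Ccl3 and -0.82 to 0.048 for Ccl8. The causes were not tested. Signal over background could not be examined for any gene, which limits what can be said of Ccl24 and also of Ccl17 and Ccl22.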
